A study of Mus musculus with 18 samples.

Results

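RNA-seq of refed livers compared JMJD1C-LKO mice with their WT littermates, in 4 of the 18 samples of the series. The measure was the estimated count of every RefSeq transcript, summed to 15572 genes, of which 14192 reached 10 counts in at least 2 libraries and were tested. Each genotype had 2 libraries (n = 2), and each library was made from pooled liver RNA, so that the libraries of a genotype show the spread between pools and not between mice. JMJD1C-LKO mice carried a floxed Jmjd1c allele and a Cre transgene under the albumin promoter, which is active in hepatocytes. All mice were on a C57BL/6J background, were 12 weeks of age unless the study states otherwise, ate chow for 6 to 8 weeks and were fasted overnight. The livers of both genotypes were then collected after 6 h on a high carbohydrate diet, and no fasted liver was sequenced for RNA, so that the response to feeding itself is not part of the comparison.

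JMJD1C belongs to the jumonji family of histone demethylases, whose members act on different lysines. It is reported to remove methyl groups from lysine 9 of histone H3, a mark of silent chromatin. In a liver refed with carbohydrate, insulin activates glycolysis and de novo lipogenesis through SREBP-1c, USF-1 and ChREBP, and represses gluconeogenic genes by driving FOXO1 out of the nucleus. The comparison asks which of these programmes, and which other genes, differ between refed livers of mice labelled JMJD1C-LKO and WT.

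The targeted gene was read in every library before any other. Jmjd1c (chr10:67096351-67256326, GRCm38.p6) stood at 22.0 and 22.8 CPM (counts scaled to the size of the library) in the WT libraries and at 20.03 and 20.48 CPM in the JMJD1C-LKO libraries. Both WT values lay above both others, as in 33.8% of all genes tested. The log2 fold change was -0.14 ± 0.08 (SE) and did not pass the threshold (adjusted p = 0.23, edgeR's quasi-likelihood test). Of its transcripts, NM_207221 stood at 16.6 and 13.6 CPM in WT and 16.6 and 15.6 CPM in the other libraries. NM_001242396 stood at 5.40 and 9.18 CPM against 3.46 and 4.87 CPM, with a log2 fold change of -0.81 ± 0.33 that was not called (adjusted p = 0.21). The counts cover whole transcripts, exons that the floxed allele leaves in place included, and the sources used here do not name the exons removed. The total is therefore no check of the labels, and the libraries are called LKO-labelled from here on. Every direction below, higher or lower, is that of the LKO-labelled against the WT libraries.

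The other enzymes that write or erase methyl groups on lysine 9 of histone H3 were close to WT. Of 17 measured, 0 were higher and 1 was lower, Phf8, a demethylase of the same family (13.9 and 14.6 CPM in WT, 11.2 and 9.92 CPM in LKO-labelled, log2 -0.43 ± 0.11, adjusted p = 0.018). At an unadjusted p under 0.05, 2 were higher and 3 lower. The call of Phf8 was lost without WT replicate 1 (log2 -0.47) and without WT replicate 2 (log2 -0.40), and without LKO-labelled replicate 1 the list had 3 higher and 2 lower. Within 5 Mb of Jmjd1c, 9 of 40 genes were higher (22.5%, against 14.4% over all genes) and 5 lower (12.5%, against 13.3%), with a median log2 fold change of 0.01 (0.01 over all genes). The nearest called gene was Arid5b, which encodes a DNA-binding protein, 0.84 Mb away, at 41.4 and 37.6 CPM in WT and 31.0 and 31.5 CPM in LKO-labelled (adjusted p = 0.016).

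Across the transcriptome, the livers differed in many genes by small amounts and in fewer by large ones. Of the 14192 genes, 2046 were higher (14.4%) and 1886 were lower (13.3%) at an adjusted p under 0.05. Counts by fold were unequal, with 717 genes higher by 2-fold or more and 132 lower, and 154 higher by 4-fold or more and 27 lower. The median log2 fold change was 0.77 among the higher and -0.44 among the lower genes, and 0.01 over all genes. The numbers moved with single libraries, to 863 higher and 516 lower without WT replicate 1 and to 800 and 495 without WT replicate 2, 448 and 81 of them by 2-fold or more. Without LKO-labelled replicate 1, 2688 were lower, 231 of them by 2-fold or more, and without LKO-labelled replicate 2, 436 were higher by 2-fold or more. A fit without 1 library takes its spread from the 2 libraries of the other genotype alone. Those lay closer together in WT (median difference 0.10 on the log2 scale) than in LKO-labelled livers (0.14). Calls changed over all genes in these fits, so a call lost or gained below may not be particular to its gene or list. Both LKO-labelled values lay above both WT values in 33.6% of genes and below them in 33.8%. Among lowly expressed genes, below 1 CPM, 8.68% were higher and 1.42% lower, against 17.9% and 20.8% of genes above 100 CPM.

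**Figure D1:**
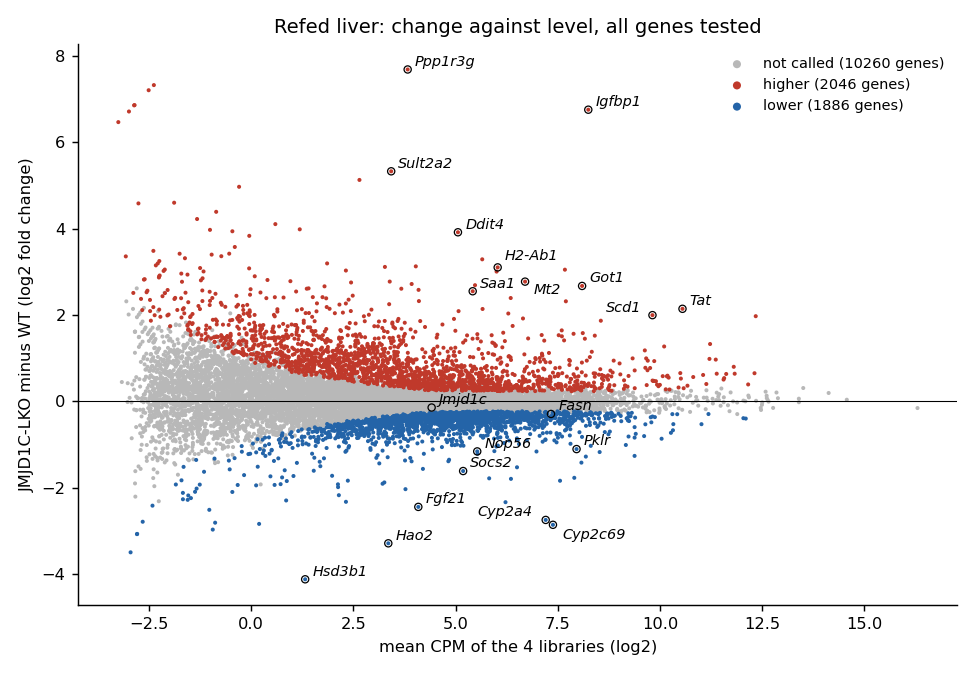
Each point is 1 of the 14192 genes tested, with its mean CPM over the 4 libraries (log2, x axis) against the log2 fold change of LKO-labelled over WT livers (y axis), red for higher, blue for lower and grey for genes not called. Changes above 4 on the log2 scale were all upward except for Hsd3b1 at -4.13, and Jmjd1c lies at -0.14 among the genes not called.

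Libraries of a genotype resembled each other more than those of the other genotype. Total counts lay between 51265128 and 54400509 per library. Genes above 1 CPM differed between the WT libraries by a median of 0.10 on the log2 scale and between the LKO-labelled libraries by 0.14, against 0.21 to 0.27 between genotypes. LKO-labelled replicate 2 lay farther from WT than replicate 1, and for many genes named below its value is the more extreme of the pair. What sets the pools of a genotype apart was not tested.

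Several genes that insulin represses were higher. Igfbp1, a secreted binding protein of insulin-like growth factors that the liver makes in fasting, stood at 4.92 and 6.19 CPM in WT and at 375 and 829 CPM in LKO-labelled livers, a 108-fold difference (log2 6.76 ± 0.37, adjusted p = 1.4e-05). The groups were far apart, although the LKO-labelled libraries differed from each other by more than those of WT. Ppp1r3g, a glycogen-targeting subunit of protein phosphatase 1, rose from 0.12 and 0.15 CPM to 16.2 and 40.3 CPM (log2 7.69 ± 0.58, adjusted p = 6.3e-05). Of 17 insulin-repressed FOXO targets measured, 9 were higher, 3 lower and 5 not called, with a median of 0.71. Foxo1 itself stood at 58.0 and 54.8 CPM against 71.3 and 88.1 CPM (log2 0.50 ± 0.10, adjusted p = 0.0076), a call lost without WT replicate 2 (log2 0.46). Moving the other way within the list were Gadd45a, a growth arrest and DNA damage gene, at 9.32 and 7.31 CPM in WT and 1.92 and 1.40 CPM in LKO-labelled livers (adjusted p = 0.00016), and Gadd45b (log2 -1.25 ± 0.20).

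The promoter of Igfbp1 is shown because this gene had the largest change of any gene above 100 CPM on average. The 250 bases before its start site (chr11:7197537-7197786, plus strand, GRCm38.p6, RefSeq) are given 5′ to 3′ with the letters CAAAACA, the core of the insulin response element to which FOXO proteins bind, in capitals.
Igfbp1: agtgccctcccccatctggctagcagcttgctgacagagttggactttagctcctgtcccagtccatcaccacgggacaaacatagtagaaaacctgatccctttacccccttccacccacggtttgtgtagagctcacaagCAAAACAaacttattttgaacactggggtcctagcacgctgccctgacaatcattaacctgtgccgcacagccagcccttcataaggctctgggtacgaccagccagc
The match begins 108 bases before the start site. The window of the same length before Pck1, another insulin-repressed gene that was higher, held 0 matches of CAAAACA. Searched on both strands, CAAAACA occurred in 5.56% of 32851 promoters of this length, in 5.02% of those of higher genes, in 3.53% of those of lower genes and in 3.98% of those of genes tested but not called. The forkhead motif GTAAACA occurred in 3.17% of all promoters. It occurred in 2.15% of those of higher genes, 2.22% of those of lower genes and 2.37% of those of genes not called. These matches are descriptions of sequence, and the motifs share the letters AAACA although no 7 bases match both.

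Gluconeogenic genes rose as a group. Their list shares Ppargc1a with the FOXO targets and Got1 with the genes of amino acid breakdown. Pck1 is in both the FOXO and the periportal lists, so these lists are not separate sets of genes. Of 16 enzymes and regulators, 14 were higher and 0 lower (1 at an unadjusted p under 0.05), with a median of 0.61, or 1 lower and a median of 0.37 without LKO-labelled replicate 2. Pck1, the cytosolic enzyme that commits oxaloacetate to glucose, stood at 1525 and 1207 CPM in WT and 3103 and 3754 CPM in LKO-labelled livers (log2 1.33 ± 0.13, adjusted p = 0.00024). Ppargc1a, the coactivator PGC-1alpha that drives the programme in fasting, rose from 8.82 and 8.92 CPM to 25.5 and 33.1 CPM (log2 1.72 ± 0.13, adjusted p = 6.3e-05). For each of them the LKO-labelled values lay above both of WT, as in 33.6% of all genes. Tat, tyrosine aminotransferase, was at 592 and 516 CPM against 1991 and 2907 CPM, and Got1, cytosolic aspartate aminotransferase, at 76.2 and 72.0 CPM against 365 and 581 CPM (log2 2.67 ± 0.18). G6pc, which releases free glucose, was higher by less, with 313 and 358 CPM in WT and 438 and 661 CPM in LKO-labelled livers (log2 0.71 ± 0.16, adjusted p = 0.011), and its call was lost without WT replicate 1 (log2 0.62) and in DESeq2 (log2 0.71). With either WT library left out, 8 members of the list were higher.

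**Figure D2:**
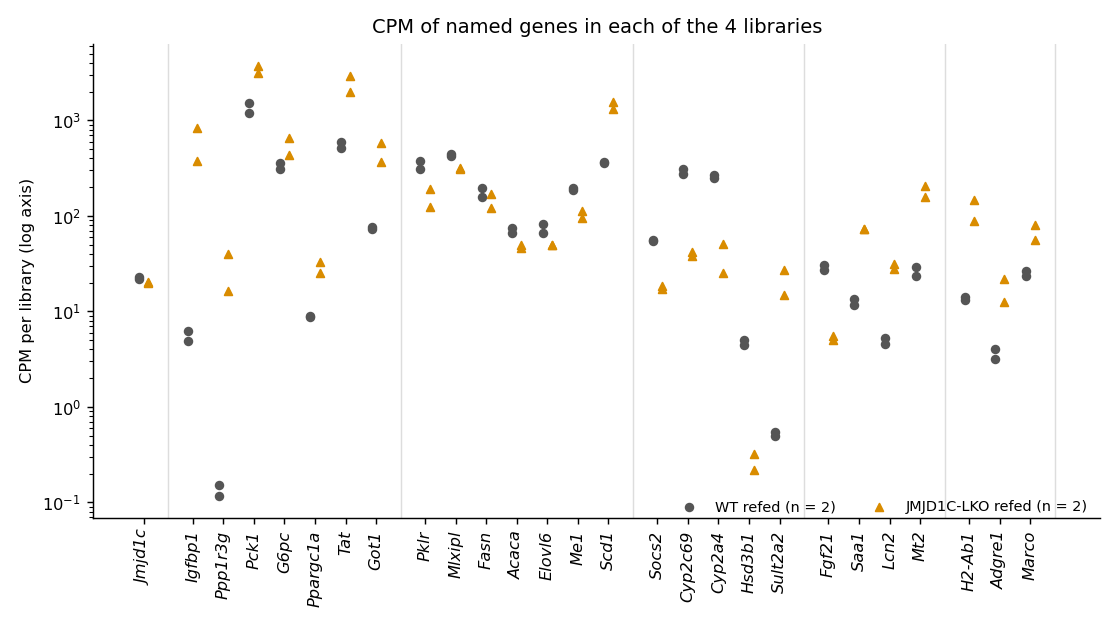
CPM on a log axis of named genes in the 2 WT (grey circles) and 2 LKO-labelled (orange triangles) libraries, in blocks from the left for the targeted gene, insulin-repressed and fasting genes, glucose use and lipid synthesis, growth hormone and sex-biased genes, secreted and metal-binding proteins, and immune genes. The genotypes lie apart for all genes drawn but Fasn, whose values overlap, and Igfbp1 spans 4.92 to 829 CPM. Over all genes tested, both LKO-labelled values lay above both of WT in 33.6% and below them in 33.8%.

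Of the genes of glucose use, liver pyruvate kinase and ChREBP were lower. Pklr, which encodes that last enzyme of glycolysis, fell from 309 and 372 CPM in WT to 192 and 123.7 CPM (log2 -1.11 ± 0.18, adjusted p = 0.0022). Mlxipl, which encodes ChREBP, stood at 446 and 428 CPM against 307 and 314 CPM (log2 -0.49 ± 0.08, adjusted p = 0.0022). Aldoa, an aldolase, was lower by log2 -0.26 ± 0.08 (adjusted p = 0.031), without a call when WT replicate 1 (-0.26) or 2 (-0.26) was left out. Pfkl (log2 -0.01 ± 0.08) and Pgk1 (log2 0.28 ± 0.10, adjusted p = 0.066) were not called, although Pgk1 was called higher in DESeq2 (0.28), with the replicate block (0.28) and without LKO-labelled replicate 2 (0.32). Of 28 genes of glucose uptake, glycolysis and fructose use, 7 were higher (25%, against 14.4% over all genes) and 4 lower (14.3%, near the 13.3% over all genes). The higher ones included Pfkfb1, a liver form of the enzyme that makes and degrades fructose 2,6-bisphosphate (log2 0.72 ± 0.09, adjusted p = 0.00071), and Hk3, a hexokinase of blood cells (log2 1.56 ± 0.24). Leaving out WT replicate 1 or 2 gave 4 higher and 2 lower, and leaving out LKO-labelled replicate 1 gave 8 lower.

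Lipogenic enzymes did not change in 1 direction. Of 25 enzymes of fatty acid and triglyceride synthesis, 10 were higher (40%, against 14.4% over all genes), 5 lower (20%, against 13.3%) and 10 not called. Their median was 0.09, which went to 0.03 without WT replicate 1 and to 0.20 without LKO-labelled replicate 2. Me1, the malic enzyme that supplies NADPH, fell from 185 and 196 CPM to 112 and 94.3 CPM (log2 -0.88 ± 0.10, adjusted p = 0.00037). Acaca, which makes malonyl-CoA, fell from 65.5 and 75.4 CPM to 49.0 and 46.2 CPM (log2 -0.57 ± 0.09, adjusted p = 0.0022), and Elovl6, which elongates palmitate, from 66.9 and 83.0 CPM to 49.7 and 49.5 CPM (log2 -0.59 ± 0.10, adjusted p = 0.0034). In each of these the LKO-labelled values lay below both of WT, as in 33.8% of all genes. The fatty acid synthase gene Fasn stood at 158 and 198 CPM in WT and 169 and 121 CPM in LKO-labelled livers. Its groups overlapped and it was not called (log2 -0.29 ± 0.15, adjusted p = 0.18), although without LKO-labelled replicate 1 it was (log2 -0.55). Acly, ATP citrate lyase (log2 0.00 ± 0.13), Gpam, the first enzyme of triglyceride synthesis (log2 0.14 ± 0.08), and Srebf1, which encodes SREBP-1 (log2 0.00 ± 0.14), were not called. Without LKO-labelled replicate 1, Srebf1 was called lower (log2 -0.28), and without LKO-labelled replicate 2 it was positive (log2 0.24) and not called.

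The desaturase and the phosphatases of the lipid pathway went up. Scd1, the delta-9 desaturase, rose from 369 and 354 CPM to 1314 and 1571 CPM (log2 1.997 ± 0.10, adjusted p = 1.2e-05), with the smallest p of the list. Lpin1 and Lpin2, phosphatidate phosphatases, were at 130 and 147 CPM against 341 and 489 CPM and at 156 and 151 CPM against 337 and 502 CPM. Among 24 lipogenic transcription factors and members of the insulin signalling pathway, 4 were higher and 3 lower. These shares of 16.7% and 12.5% were near the 14.4% and 13.3% over all genes. Higher were Insig2, which holds SREBPs in the endoplasmic reticulum (71.7 and 69.7 CPM against 175 and 236 CPM, log2 1.54 ± 0.13), and Scap, the SREBP escort protein (log2 0.48 ± 0.08). Usf1, which encodes USF-1, was not called (log2 0.09 ± 0.10). Lipogenic enzymes were 4 higher and 4 lower without WT replicate 1, and 5 and 3 without WT replicate 2. Of the regulators, 2 were higher and 1 lower without WT replicate 1 or 2, and 5 were lower without LKO-labelled replicate 1.

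Fat oxidation showed no common direction either. Of 27 enzymes of fatty acid oxidation and ketogenesis 5 were higher (18.5%, against 14.4% over all genes) and 4 lower (14.8%, against 13.3%). Their median was -0.03, or 0.04 without LKO-labelled replicate 1. Cpt1a, which admits fatty acids to mitochondria, stood at 366 and 356 CPM against 519 and 557 CPM (log2 0.58 ± 0.08, adjusted p = 0.0013). Acaa1a, a peroxisomal thiolase, was higher by log2 0.30 ± 0.08 and lost its call without WT replicate 1 (0.29) or 2 (0.32), whereas the thioesterase Acot1 was not called (log2 0.13 ± 0.21). The list had 2 higher and 1 lower without WT replicate 1, and 2 and 0 without WT replicate 2. Other targets of PPAR-alpha, the fatty acid receptor of hepatocytes, were split into 8 higher (40%, against 14.4% over all genes) and 5 lower (25%, against 13.3%) of 20. Pdk4, which blocks pyruvate oxidation, rose from 1.003 and 1.17 CPM to 5.18 and 12.6 CPM (log2 3.03 ± 0.39, adjusted p = 0.00077), and Angptl4, a lipoprotein lipase inhibitor, by log2 0.91 ± 0.14. These targets were 4 higher and 4 lower without WT replicate 1, and 4 and 3 without WT replicate 2.

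Fgf21, a hormone that the liver secretes under PPAR-alpha and ChREBP, was among the most clearly lower genes, at 30.3 and 27.3 CPM in WT and 5.04 and 5.50 CPM in LKO-labelled livers (log2 -2.45 ± 0.11, adjusted p = 5.7e-06). It lies at chr7:45613890-45615490 on the minus strand. Its 250 bases before the start site (chr7:45615491-45615740, minus strand) are shown with the E-box CACGTG, the letters that USF-1 reads, in capitals.
Fgf21: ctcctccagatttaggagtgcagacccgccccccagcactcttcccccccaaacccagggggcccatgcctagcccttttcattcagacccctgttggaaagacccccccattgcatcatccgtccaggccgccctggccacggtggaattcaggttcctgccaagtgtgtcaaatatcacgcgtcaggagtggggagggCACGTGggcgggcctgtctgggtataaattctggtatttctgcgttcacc
The match begins 50 bases before the start site. CACGTG was present in 6.02% of all promoters of this length, in 7.69% of those of higher genes, 9.12% of those of lower genes and 7.91% of those of genes not called. The match is a description of this window.

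Amino acid breakdown rose broadly. Of 44 genes of amino acid degradation and the urea cycle 30 were higher and 1 lower, with a median of 0.43, and their summed level went from 27030 to 29140 CPM in the WT libraries to 47210 to 48010 CPM in the others. Gnmt, which consumes the methyl donor S-adenosylmethionine, stood at 607 and 682 CPM in WT and 1557 and 1554 CPM in LKO-labelled livers (log2 1.27 ± 0.09, adjusted p = 5.1e-05). Acmsd, which steers tryptophan away from NAD synthesis, rose from 5.58 and 6.35 CPM to 20.9 and 21.2 CPM (log2 1.82 ± 0.11, adjusted p = 2.3e-05). Periportal hepatocyte genes, several of which serve the same reactions, were 9 higher and 0 lower of 18 (0 at an unadjusted p under 0.05). Among them Sds, serine dehydratase, stood at 102 and 86.3 CPM against 254 and 333 CPM (log2 1.64 ± 0.13, adjusted p = 8.7e-05). Pericentral genes were 8 higher and 1 lower of 18, and the lower one was Tbx3, a transcription factor (log2 -0.92 ± 0.13). Genes of amino acid breakdown were 19 higher without WT replicate 2, and the pericentral genes gave 5 higher without WT replicate 1 and 4 without WT replicate 2.

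Genes that glucocorticoids induce in liver were mostly higher. Of 18, the receptor included, 14 were higher, 2 lower and 2 not called, with a median of 1.079, and 1 was lower without either WT library. The list shares Tat, Mt1, Mt2, Lcn2, Pdk4 and others with lists described elsewhere, so it is not a separate set of genes. Nr3c1, the glucocorticoid receptor, was lower at 74.9 and 71.5 CPM in WT and 63.4 and 50.1 CPM (log2 -0.37 ± 0.11, adjusted p = 0.032). That call was lost without WT replicate 1 (-0.33), WT replicate 2 (-0.40) or LKO-labelled replicate 2 (-0.20). Ddit4, an inhibitor of mTORC1 that stress hormones induce, rose from 4.05 and 4.22 CPM to 41.0 and 84.0 CPM (log2 3.92 ± 0.30, adjusted p = 6.6e-05).

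Metallothioneins, which bind zinc and copper and respond to metal and to glucocorticoids, were higher. Mt1 stood at 75.8 and 63.0 CPM in WT and 302 and 390 CPM in LKO-labelled livers (log2 2.32 ± 0.14, adjusted p = 1.9e-05). Mt2, its neighbour on chromosome 8, stood at 29.4 and 23.7 CPM against 159 and 204 CPM (log2 2.77 ± 0.14, adjusted p = 1.2e-05). The rest of the 23 genes of the metal list did not follow. In all, 2 were higher (8.7%, below the 14.4% over all genes) and 3 lower (13%, near the 13.3% over all genes). The lower ones were Slc30a10, a manganese exporter (log2 -0.84 ± 0.09), Slc30a1, a zinc exporter (log2 -0.72 ± 0.10), and Slc30a3. The promoters of the pair are shown since both genes moved together, at chr8:94178839-94179088 for Mt1 and chr8:94172368-94172617 for Mt2, plus strand, with the metal response motif TGCACNC or TGCGCNC on either strand in capitals.
Mt1: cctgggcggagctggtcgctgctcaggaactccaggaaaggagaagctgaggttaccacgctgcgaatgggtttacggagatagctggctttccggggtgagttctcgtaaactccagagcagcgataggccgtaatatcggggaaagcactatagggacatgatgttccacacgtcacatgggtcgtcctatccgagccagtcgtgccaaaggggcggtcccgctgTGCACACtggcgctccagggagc
Mt2: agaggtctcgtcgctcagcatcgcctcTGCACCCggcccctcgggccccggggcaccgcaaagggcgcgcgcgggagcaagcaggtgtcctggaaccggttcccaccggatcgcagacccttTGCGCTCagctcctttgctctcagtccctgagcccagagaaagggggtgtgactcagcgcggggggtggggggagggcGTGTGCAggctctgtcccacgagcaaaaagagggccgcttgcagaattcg
The window of Mt1 ends at the start site that the RefSeq promoter table lists, which lies inside the gene as annotated from 94178883, so that most of this window is downstream of the gene's first base. Mt1 had 1 match in it, 23 bases before the listed start, and Mt2 had 3, beginning 223, 128 and 50 bases before. The motif is short and was found in 21.4% of all promoters, in 25.4% of those of higher, 30.0% of those of lower and 29.0% of those of genes not called.

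Cholesterol genes divided, with 7 of 23 synthesis genes and SREBP-2 targets higher (30.4%, against 14.4% over all genes) and 7 lower (30.4%, against 13.3%). Stard4, a sterol carrier, fell from 63.8 and 67.4 CPM to 47.2 and 38.6 CPM (log2 -0.61 ± 0.10). The split went to 2 and 1 without WT replicate 1, to 3 and 1 without WT replicate 2, and to 11 lower without LKO-labelled replicate 1. Bile acid genes were 9 higher (36%) and 2 lower (8%, below the 13.3% over all genes) of 25. Cyp8b1, which makes the cholic acid precursor, was at 263 and 255 CPM in WT and 397 and 416 CPM (log2 0.65 ± 0.08, adjusted p = 6e-04), whereas Cyp7a1, the rate-limiting enzyme, fell from 166 and 178 CPM to 114 and 118 CPM (log2 -0.57 ± 0.08, adjusted p = 0.0012) and Nr1h4, the bile acid receptor FXR, by log2 -0.65 ± 0.09. Bile acid genes were 3 higher without WT replicate 1 and 6 without WT replicate 2, while 6 were lower without LKO-labelled replicate 1. Of 28 apolipoprotein and lipoprotein genes 9 were higher (32.1%) and 3 lower (10.7%, below the 13.3% over all genes). Apoa4, a lipid-carrying apolipoprotein, stood at 1613 and 1574 CPM against 3153 and 3146 CPM (log2 0.98 ± 0.08). Angptl8, an insulin-induced regulator of lipoprotein lipase, went the other way, from 306 and 282 CPM to 99.2 and 65.1 CPM (log2 -1.84 ± 0.17, adjusted p = 0.00015). Without LKO-labelled replicate 1, 5 genes of this list were lower.

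**Figure D3:**
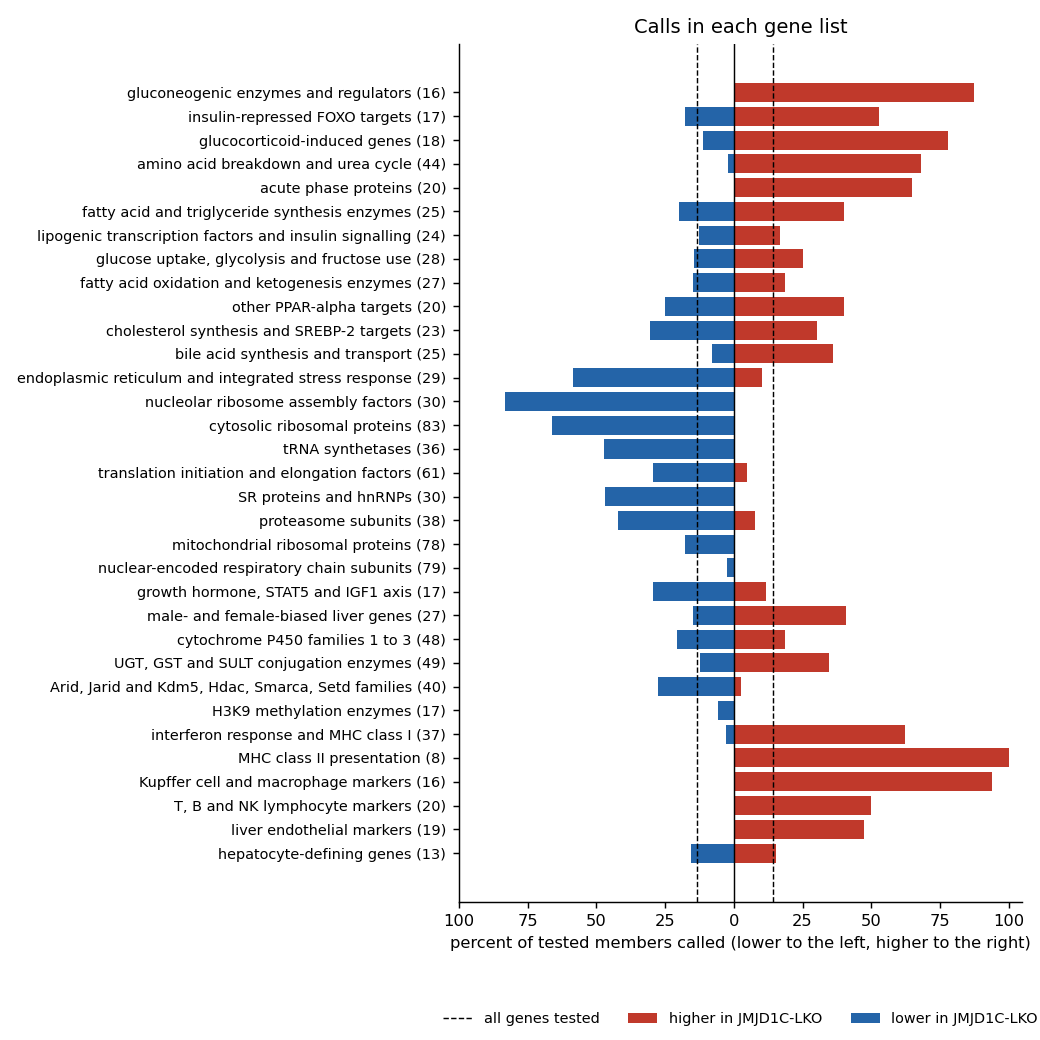
Bars give, for each gene list, the percent of tested members called higher (red, to the right) or lower (blue, to the left) in LKO-labelled livers, with the number tested in brackets, and dashed lines mark 14.4% higher and 13.3% lower over all genes. MHC class II and macrophage genes reach furthest to the right and nucleolar ribosome assembly factors furthest to the left.

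Genes for building ribosomes were mostly lower. Of 30 nucleolar ribosome assembly factors 25 were lower and 0 higher (0 at an unadjusted p under 0.05), with a median of -0.58. Gnl3, nucleostemin, stood at 66.4 and 63.5 CPM in WT and 29.3 and 26.7 CPM in LKO-labelled livers (log2 -1.22 ± 0.08, adjusted p = 4.6e-05), and Nop56, a core protein of small nucleolar RNPs, at 64.5 and 63.2 CPM against 30.0 and 27.2 CPM (log2 -1.16 ± 0.08, adjusted p = 5.2e-05). Ppan, another ribosome assembly factor, fell from 39.7 and 42.3 CPM to 15.2 and 16.1 CPM (log2 -1.39 ± 0.09). Of 83 cytosolic ribosomal protein genes 55 were lower and 0 higher (0 at an unadjusted p under 0.05), each by little, with a median of -0.28, and their summed level was 23840 and 24110 CPM in WT against 19990 and 19870 CPM. These genes have many processed pseudogenes, and how shared reads were assigned is not stated. Without WT replicate 1 or 2 fewer members of the list were called, as over all genes, while its median stayed at -0.29 and -0.28.

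tRNA synthetases and translation factors had more lower than higher members. Of 36 tRNA synthetases 17 were lower and 0 higher (0 at an unadjusted p under 0.05), with a median of -0.32, and Cars, the cysteinyl enzyme, stood at 39.8 and 39.5 CPM against 22.2 and 18.9 CPM (log2 -0.95 ± 0.10, adjusted p = 0.00025). Of 61 initiation and elongation factors and their partners 18 were lower (29.5%, against 13.3% over all genes) and 3 higher (4.92%, below the 14.4% over all genes). Lower was Eif2s2, a subunit of eIF2 (205 and 200 CPM against 145 and 140 CPM, log2 -0.51 ± 0.08). The higher genes were Eif4ebp3 and Eif4ebp2, which hold eIF4E inactive, and Eif4e3, a weak cap-binding relative, and Eif4ebp3 rose from 108 and 112 CPM to 268 and 319 CPM (log2 1.41 ± 0.10, adjusted p = 4.6e-05). The call of Eif4ebp2 was lost without WT replicate 1 (log2 0.28). Counts of lower genes without WT replicate 1 and 2 were 9 and 8 for the synthetases and 5 and 4 for the factors, and 2 factors were higher without WT replicate 1. Of 78 mitochondrial ribosomal proteins 14 were lower (17.9%, near the 13.3% over all genes) and 0 higher (2 at an unadjusted p under 0.05), and the number lower fell to 0 and 2 without WT replicate 1 and 2 and came to 29 without LKO-labelled replicate 1. The respiratory chain had 2 lower and 0 higher of 79 nuclear-encoded subunits (6 higher at an unadjusted p under 0.05), a smaller share than the 13.3% over all genes, with 6 higher and 6 lower without LKO-labelled replicate 1, 2 higher and 1 lower without LKO-labelled replicate 2, and 0 lower without either WT library.

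Chaperone and stress response genes of the endoplasmic reticulum were mostly lower. Of 29 genes of the endoplasmic reticulum and integrated stress response 17 were lower (58.6%) and 3 higher (10.3%, below the 14.4% over all genes). Their median was -0.44, and their sum went from 7940 and 8333 CPM to 5900 and 5130 CPM. Sdf2l1, a chaperone partner, fell from 47.0 and 51.2 CPM to 26.6 and 21.6 CPM (log2 -1.03 ± 0.11, adjusted p = 0.00029), Creld2 from 96.6 and 111 CPM to 57 and 53.4 CPM and Manf from 208 and 238 CPM to 128 and 110 CPM. All of them are secretory pathway genes that unfolded proteins induce. Higher were Sesn2, a stress-induced inhibitor of mTORC1 (log2 1.06 ± 0.19, adjusted p = 0.0035), Trib3, a pseudokinase (log2 0.64 ± 0.12), and Herpud1. The calls of Trib3 and Herpud1 were lost without WT replicate 1 (0.64 and 0.31) and 2 (0.64 and 0.37), which left 1 gene higher, and 11 genes were lower without WT replicate 2. Of 38 proteasome subunits 16 were lower (42.1%, against 13.3% over all genes) and 3 higher (7.89%). Higher were the immunoproteasome subunits Psmb9 (7.14 and 5.47 CPM against 13.6 and 16.2 CPM) and Psmb8, which interferon induces, and the assembly chaperone Psmd9 (log2 0.57 ± 0.09). Proteasome subunits were 3 lower without WT replicate 1 and 5 without WT replicate 2. Splicing proteins of the SR and hnRNP families were 14 lower and 0 higher of 30 (0 at an unadjusted p under 0.05), Hnrnpd for example by log2 -0.63 ± 0.09, with 4 and 6 lower without WT replicate 1 and 2.

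**Figure D4:**
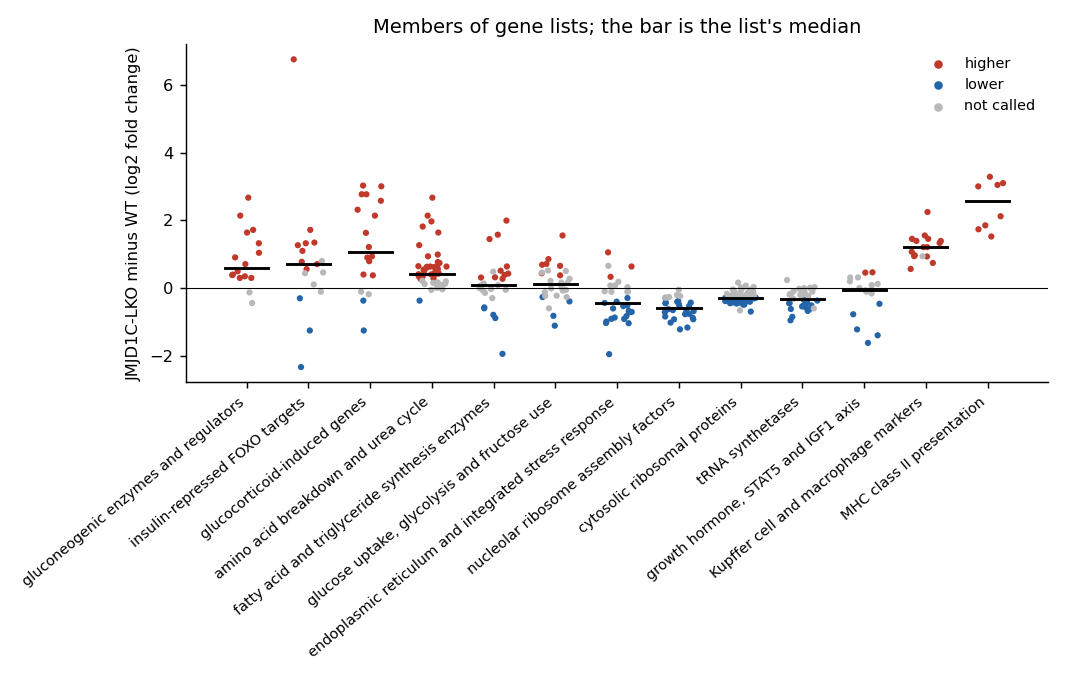
Each point is the log2 fold change (LKO-labelled over WT, y axis) of 1 tested member of the gene list on the x axis, red for higher, blue for lower and grey for not called, and the black bar is the median. Medians run from -0.58 for nucleolar ribosome assembly factors to 2.57 for MHC class II genes, and lipogenic enzymes and glycolysis spread on both sides of 0.

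Chromatin genes were measured as families. Of 40 members of the Arid, Jarid and Kdm5, Hdac, Smarca and Setd families 11 were lower (27.5%, against 13.3% over all genes) and 1 higher (2.5%, against 14.4%). Their median was -0.15. Setd4, a SET domain protein, fell from 22.7 and 21.8 CPM to 10.6 and 11.99 CPM (log2 -0.98 ± 0.10, adjusted p = 0.00027), and Setd1a, which methylates lysine 4 of histone H3, from 48.8 and 45.3 CPM to 31.2 and 31.8 CPM (log2 -0.58 ± 0.08). Hdac10 was the higher one (log2 0.36 ± 0.12, adjusted p = 0.045) and lost its call in DESeq2 (0.36), without WT replicate 1 (0.30) or 2 (0.41) and without LKO-labelled replicate 2 (0.30). The families had 2 lower without WT replicate 1 and 4 without WT replicate 2, while 5 were higher without LKO-labelled replicate 1.

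Growth hormone acts on liver through STAT5 and shapes the sex-biased genes, and its axis was altered at a few members. Socs2, a STAT5 target that feeds back on the receptor, fell from 54.5 and 55.3 CPM to 17.3 and 18.5 CPM (log2 -1.62 ± 0.08, adjusted p = 1.2e-05). The transcription factors Onecut1 (25.6 and 26.6 CPM against 12.95 and 9.58 CPM) and Cux2 (22.4 and 21.6 CPM against 6.11 and 10.6 CPM) fell as well. Of the 17 genes 5 were lower (29.4%, against 13.3% over all genes) and 2 higher (11.8%, below the 14.4% over all genes). The higher ones were Stat3 (log2 0.47 ± 0.08) and Stat5b (log2 0.46 ± 0.09), and Stat5b was not called without WT replicate 1 (0.45) or 2 (0.47), which left 1 gene higher. Of 27 sex-biased genes 11 were higher (40.7%, against 14.4% over all genes) and 4 lower (14.8%, near the 13.3% over all genes). Elovl3, a fatty acid elongase that is higher in males, rose from 4.32 and 3.68 CPM to 32.4 and 20.4 CPM (log2 2.72 ± 0.21, adjusted p = 6.6e-05), and Cyp2a4, a steroid hydroxylase that is higher in females, fell from 267 and 247 CPM to 25.1 and 51.2 CPM (log2 -2.75 ± 0.26, adjusted p = 0.00018). The female-biased Sult2a1 nevertheless rose, from 0.46 and 0.23 CPM to 7.28 and 17.1 CPM. Without LKO-labelled replicate 1, 7 sex-biased genes were lower, and the median of the list went from 0.23 to 0.02, against 0.56 without LKO-labelled replicate 2.

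Drug-metabolizing enzymes held several of the largest changes with no direction in common. Cyp2c69 had the smallest p of all lower genes, at 277 and 310 CPM in WT and 42.3 and 38.4 CPM (log2 -2.86 ± 0.10, adjusted p = 1.5e-06), and Cyp2c40 went from 423 and 319 CPM to 110 and 107 CPM. Both belong to a cluster of near-identical genes on chromosome 19, so that reads may have been split between copies. Cyp2b10, a target of the xenobiotic receptor CAR, rose from 1.99 and 2.01 CPM to 11.9 and 22.7 CPM (log2 3.12 ± 0.28, adjusted p = 0.00016). Of 48 genes of cytochrome P450 families 1 to 3 in all, 9 were higher (18.8%, against 14.4% over all genes) and 10 lower (20.8%, against 13.3%). These numbers moved when a library was left out. Conjugation enzymes were 17 higher (34.7%) and 6 lower (12.2%, near the 13.3% over all genes) of 49. Sult2a2, a steroid sulphotransferase, rose from 0.54 and 0.50 CPM to 14.9 and 27.0 CPM (log2 5.33 ± 0.32, adjusted p = 2.3e-05) and shares much of its sequence with Sult2a1, and Ugt2b5 fell from 1030 and 964 CPM to 638 and 502 CPM. Conjugation enzymes were 3 lower without WT replicate 1 or 2, and 10 without LKO-labelled replicate 1. Hsd3b1, which oxidizes steroids, had the deepest fall above 1 CPM, from 5.02 and 4.43 CPM to 0.32 and 0.22 CPM (log2 -4.13 ± 0.28), followed by Hao2, a peroxisomal hydroxy acid oxidase, from 19.4 and 17.7 CPM to 1.52 and 2.25 CPM (log2 -3.29 ± 0.17).

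Among secreted proteins, those of the acute phase were higher. Of 20, 13 were higher and 0 lower (0 at an unadjusted p under 0.05), with a median of 0.40. Saa1, serum amyloid A, had the smallest p of all higher genes, at 11.6 and 13.4 CPM in WT and 72.6 and 73.6 CPM (log2 2.55 ± 0.09, adjusted p = 1.8e-06). Lcn2, lipocalin 2, which withholds iron from bacteria, rose from 5.25 and 4.53 CPM to 27.5 and 31.0 CPM (log2 2.58 ± 0.12, adjusted p = 5.7e-06), and Orm2, an orosomucoid, from 7.41 and 7.77 CPM to 26.2 and 28.9 CPM. The LKO-labelled values of these genes lay close together. The list had 8 higher without WT replicate 2 and 1 lower without LKO-labelled replicate 1. Of 35 complement and coagulation genes 8 were higher (22.9%, against 14.4% over all genes) and 3 lower (8.57%, below the 13.3% over all genes). C6 stood at 34.9 and 36.7 CPM against 129 and 86.4 CPM (log2 1.59 ± 0.16), and Mbl2, a mannose-binding lectin, fell from 501 and 498 CPM to 310 and 300 CPM (log2 -0.71 ± 0.08). Serpins were 10 higher (28.6%) and 3 lower (8.57%, also below the 13.3% over all genes) of 35. Serpina6, which carries corticosteroids in blood, fell from 439 and 413 CPM to 233 and 184 CPM (log2 -1.03 ± 0.11, adjusted p = 0.00035). Complement and coagulation calls went to 4 higher and 1 lower without WT replicate 1, to 3 and 1 without WT replicate 2 and to 13 higher and 2 lower without LKO-labelled replicate 2, and 5 serpins were lower without LKO-labelled replicate 1. Inhba, the activin subunit, was also lower, at 82.8 and 92.7 CPM against 28.4 and 22.6 CPM (log2 -1.79 ± 0.12).

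Markers of immune cells were higher in the LKO-labelled livers. MHC class II genes, with which macrophages and B cells present antigen, were 8 higher of 8, with a median of 2.57, and their sum rose from 107 to 109 CPM in WT to 575 and 967 CPM. H2-Ab1 stood at 14.2 and 13.1 CPM in WT and 89.1 and 145 CPM in LKO-labelled livers (log2 3.10 ± 0.20, adjusted p = 3.3e-05), and Cd74, the invariant chain, at 45.1 and 43.0 CPM against 273 and 457 CPM. Of 16 Kupffer cell and macrophage markers 15 were higher and 0 lower (0 at an unadjusted p under 0.05), with a sum of 377 and 394 CPM in WT against 733 and 1050 CPM. Adgre1, which encodes the macrophage antigen F4/80, rose from 3.15 and 4.07 CPM to 12.6 and 21.7 CPM (log2 2.25 ± 0.25, adjusted p = 0.00035), and the scavenger receptor Marco from 26.3 and 23.3 CPM to 56.3 and 79.8 CPM. In bulk liver, more cells of a type and more RNA per cell cannot be told apart. Hepatocytes, in which the albumin promoter is active, are not the cells that these markers define.

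Lymphocyte, endothelial and stellate lists had members called higher and 0 called lower. Lymphocyte markers were 10 higher and 0 lower of 20 (0 at an unadjusted p under 0.05), with sums of 18.7 to 20.9 CPM in WT and 39.4 to 54.5 CPM in LKO-labelled livers, and Ccl5 for example at 2.53 and 2.19 CPM against 5.87 and 9.58 CPM. Liver endothelial markers were 9 higher and 0 lower of 19 (0 at an unadjusted p under 0.05), with sums of 310 to 325 CPM against 391 to 516 CPM, and Stab2, a scavenger receptor of sinusoids, at 26.4 and 27.6 CPM against 40.5 and 54.6 CPM. Stellate cell and matrix genes were 5 higher and 0 lower of 23 (1 at an unadjusted p under 0.05), led by Col4a2 (log2 0.60 ± 0.08). These counts went to 6 lymphocyte and 2 stellate genes higher without WT replicate 1, without WT replicate 2, 3 endothelial and 2 stellate genes, without LKO-labelled replicate 1, 17 endothelial and 13 stellate genes, and without LKO-labelled replicate 2, 3 stellate genes. Of 11 neutrophil markers 4 could be tested, and 1 of them, Csf3r, was higher, or 2 without either LKO-labelled library. No tested marker of these lists was at 0 in any library. Interferon response and MHC class I genes, which hepatocytes and immune cells both express, were 23 higher and 1 lower of 37 with a median of 0.52, and Tap1, a peptide transporter, rose from 14.3 and 14.1 CPM to 25.6 and 34.1 CPM (log2 1.07 ± 0.13), with 11 higher without WT replicate 1 and 12 without WT replicate 2. The part that the immune and endothelial markers have in the acute phase, interferon, immunoproteasome and hexokinase results was not tested.

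Dividing cells and early response genes gave mixed counts. Of 40 cell cycle genes 9 were higher (22.5%, against 14.4% over all genes) and 7 lower (17.5%, against 13.3%). Cdkn1a, the cell cycle inhibitor p21, rose from 2.66 and 2.69 CPM to 12.5 and 24.1 CPM (log2 2.78 ± 0.28, adjusted p = 0.00024), and E2f8, a repressor in polyploid hepatocytes, fell from 11.7 and 12.1 CPM to 4.94 and 4.66 CPM (log2 -1.31 ± 0.13, adjusted p = 0.00021). Ccnb2, a mitotic cyclin, was at 0.48 and 0.46 CPM against 1.96 and 3.07 CPM. Of 22 immediate early genes 10 were higher (45.5%) and 1 lower (4.55%). Btg2, an antiproliferative gene, stood at 5.62 and 5.85 CPM against 21.0 and 36.3 CPM (log2 2.32 ± 0.22) and Klf10 was lower at 82.2 and 88.3 CPM against 47.8 and 28.9 CPM. Cell cycle genes were 5 higher and 1 lower without WT replicate 1 or 2, immediate early genes 6 higher and 4 higher in turn, and 2 and 3 of the latter were lower without LKO-labelled replicate 1 and 2. Hes1, the Notch target, was among the most clearly lower genes, at 42.2 and 40.2 CPM against 17.4 and 14.9 CPM (log2 -1.35 ± 0.10). Clock genes were 2 higher (10.5%, below the 14.4% over all genes) and 5 lower (26.3%, against 13.3%) of 19. Per2 stood at 78.1 and 78.9 CPM against 59.4 and 53.5 CPM and Ciart at 21.6 and 20.4 CPM against 31.4 and 32.2 CPM. Clock genes were 1 higher and 1 lower without WT replicate 1, 1 and 2 without WT replicate 2, and 8 lower without LKO-labelled replicate 1. Of 21 glycogen genes 1 was higher, Ppp1r3g, and 2 lower, and the number lower moved with the libraries left out. These shares of 4.76% and 9.52% were below the 14.4% and 13.3% over all genes.

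Markers of the labelled tissue were present. Hepatocyte-defining genes summed to 136400 to 138200 CPM in WT and 124300 to 140800 CPM in LKO-labelled livers. Of 13 measured 2 were higher (15.4%, near the 14.4% over all genes) and 2 lower (15.4%, near the 13.3%). The higher ones included Cps1, the entry enzyme of the urea cycle (2019 and 2175 CPM against 3389 and 3148 CPM, log2 0.64 ± 0.09). Leaving out either WT library gave 1 higher and 0 lower. Exocrine pancreas genes were almost absent, with 3 of 14 tested and sums of 5.96 to 9.20 CPM, and fat and muscle genes with 3 of 11 tested summed to 1.32 to 3.22 CPM. Cholangiocyte markers were 1 lower and 0 higher of 8 (0 at an unadjusted p under 0.05), and blood markers 1 higher and 0 lower of 9, or 7 higher without WT replicate 1 and 0 without WT replicate 2, since WT replicate 1 held 1261 CPM and WT replicate 2 held 716 CPM of these genes. The X-inactivation RNA Xist was at 0.53 to 1.36 CPM and the Y-linked gene Ddx3y at 48.0 to 55.9 CPM in all 4 libraries, and of the 5 sex chromosome genes Kdm5d alone was called, at 16.01 and 16.03 CPM against 12.5 and 8.25 CPM (log2 -0.63 ± 0.17, adjusted p = 0.022), with no call without WT replicate 1 (-0.63) or 2 (-0.63). Nnt, which is deleted in part in the C57BL/6J substrain, stood at 45.8 and 49.4 CPM against 41.9 and 35.7 CPM (log2 -0.30 ± 0.10, adjusted p = 0.047), a call lost in DESeq2 (-0.29) and without WT replicate 1 (-0.35), WT replicate 2 (-0.24) or LKO-labelled replicate 2 (-0.18).

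At the level of single transcripts, fewer changes passed the test. Of 22345 transcripts tested, 470 were higher (2.1%) and 307 lower (1.37%), which DESeq2 put at 1321 and 1162. Leaving out WT replicate 1 gave 6 higher and 3 lower, without WT replicate 2, 1 and 2, and without LKO-labelled replicate 2, 46 and 15. Counts for the transcripts of a gene are estimates that divide shared reads, so an error in 1 of them is matched by the opposite error in another. Among 4606 genes with at least 2 transcripts tested, 24 had all of them called in the same direction and 4338 had none called, 1114 of which were called when summed. In 1 gene, Eif4e2, a transcript was called higher while another was called lower.

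The transcripts of 8 of the 4606 genes (0.174%) changed unequally. Eif4e2 encodes a cap-binding protein that represses translation, and it had the smallest p (adjusted p = 0.028). NM_001347083 fell from 7.47 and 8.89 CPM to 2.77 and 2.02 CPM (log2 -1.77 ± 0.24, adjusted p = 0.036) and NM_023314 rose from 6.06 and 6.84 CPM to 13.3 and 14.1 CPM (log2 1.084 ± 0.14, adjusted p = 0.033), while Eif4e2 as a whole stood at 52.6 and 56.4 CPM against 55.2 and 51.5 CPM (log2 -0.03 ± 0.08). In Pank4, a relative of the pantothenate kinases, the non-coding NR_131230 stood at 8.31 and 6.38 CPM in WT and 2.69 and 2.49 CPM in LKO-labelled livers (log2 -1.50 ± 0.22, adjusted p = 0.04). Its coding transcript NM_172990 was at 4.48 and 6.00 CPM against 9.27 and 8.96 CPM and was not called (adjusted p = 0.088), and the sum of Pank4 was not called (log2 -0.02 ± 0.10). Tlk2, a kinase of chromatin assembly, had its transcript NM_001112705 at 5.54 and 4.33 CPM against 9.49 and 8.52 CPM and NM_001294331 at 6.06 and 6.21 CPM against 3.64 and 3.92 CPM, neither of them called (adjusted p = 0.075 and 0.096).

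The remaining genes with unequal transcripts had low counts. In Ccdc166, NM_001163518 fell from 2.18 and 2.01 CPM to 0.16 and 0.13 CPM (adjusted p = 0.031) while NM_146059 was at 1.10 and 0.75 CPM against 1.68 and 1.42 CPM. In Prx, Gas2l3 and Klhl15 a transcript was listed at 0 in both libraries of a genotype, NM_019412 of Prx in WT and NM_001284344 of Gas2l3 and NM_001039060 of Klhl15 in LKO-labelled livers, and such a 0 can come from the division of shared reads. In Prr5l, NM_001083810 stood at 0.56 and 0.52 CPM against 0.04 and 0.05 CPM and NM_001355625 at 0.02 and 0.04 CPM against 0.45 and 0.62 CPM. Of the 8 genes 2 were called when summed, Gas2l3 (log2 -0.92 ± 0.22, adjusted p = 0.013) and Ccdc166 (log2 -0.84 ± 0.22, adjusted p = 0.021), and neither was called without WT replicate 1 (-1.04 and -0.71) or 2 (-0.80 and -0.96). The number of genes with unequal transcripts was 0 without WT replicate 1, WT replicate 2 or LKO-labelled replicate 1, at 488, 570 and 619 genes with an unadjusted p under 0.05, and 1 without LKO-labelled replicate 2, so no gene was called under every omission.

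**Figure D5:**
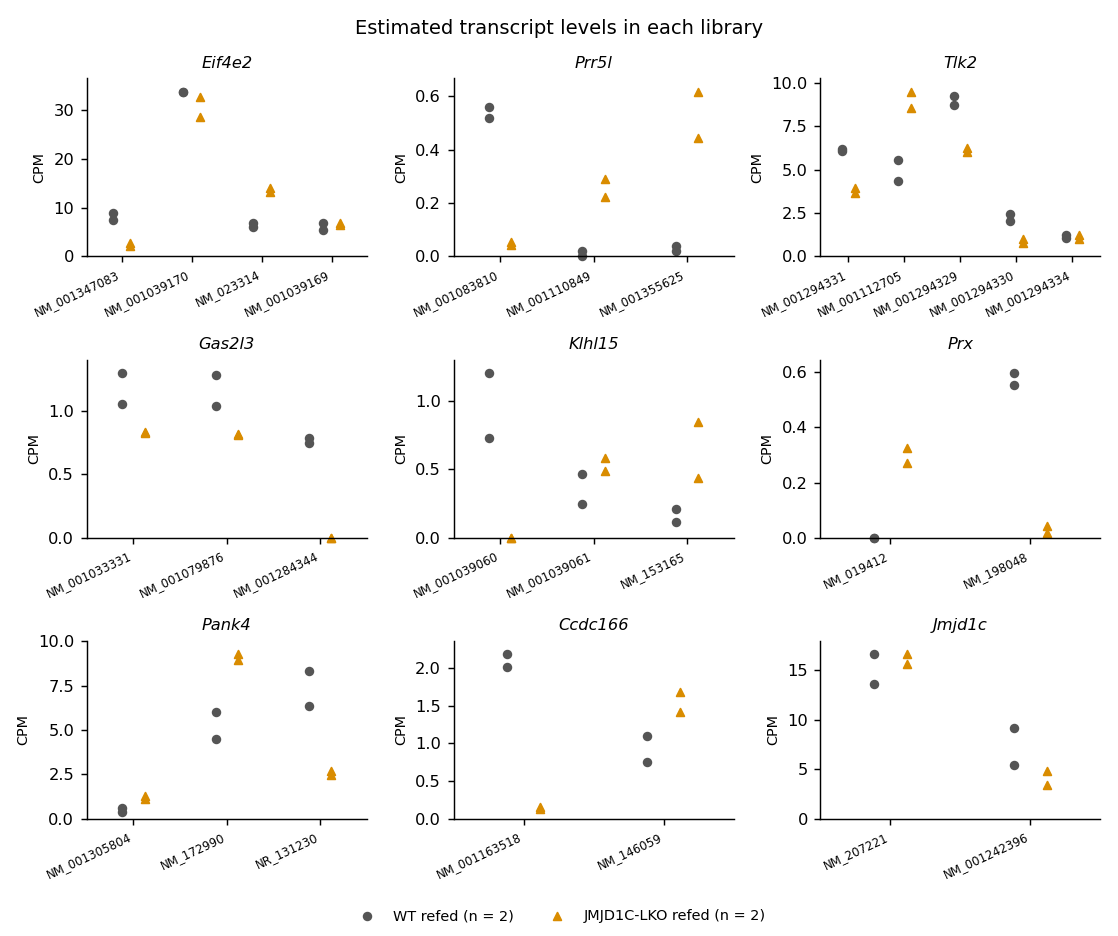
CPM of each tested transcript (x axis, RefSeq identifiers) of the 8 genes whose transcripts changed unequally and of Jmjd1c, in 2 WT (grey circles) and 2 LKO-labelled (orange triangles) libraries, each panel with its own axis from 0. In Eif4e2 NM_001347083 falls from 7.47 and 8.89 to 2.77 and 2.02 CPM as NM_023314 rises, and the transcripts of Jmjd1c stay within 3.46 to 16.6 CPM.

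Shares of called genes were similar across transcript lengths. Over 5 equal bins of length the median log2 fold change lay between -0.01 and 0.02, the share of genes higher between 13.4% and 15.5% and the share lower between 12.8% and 14.1%. Over the autosomes and the X chromosome the share higher lay between 10.1% (X) and 18.9% (chromosome 15), and the share lower between 11.7% (chromosome 7) and 18.1% (chromosome 13).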

How the data were processed

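Refed livers of 2 WT and 2 JMJD1C-LKO pools were profiled by RNA-seq from total RNA with a Kapa library kit. For each RefSeq transcript the table deposited by the authors holds an estimated count without scaling, and 65.7% to 66.0% of the values of a library are not whole. The submitters' processing notes name HISAT2 and the mm10 genome among tools and builds for the whole series, and how reads were assigned to transcripts is not given in the sources used here. A second deposited table with the authors' own fold changes and p-values was not used, nor were the peak files. The labels give 6 h of refeeding, whereas the study's methods give a longer time for its feeding experiments.

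Counts were summed per gene symbol (10 symbols lie on more than 1 chromosome), rounded, and kept at 10 or more counts in at least 2 libraries. The test was edgeR's (4.0.16) quasi-likelihood F test with TMM factors, genotype as the term and Benjamini-Hochberg adjustment over all genes tested, at 0.05. CPM are TMM-scaled, log2 fold changes are LKO over WT, and ± marks SE. Transcripts were tested alike, and unequal change with diffSpliceDGE. DESeq2 (1.42.0) and limma (3.58.1) in R 4.3.3 were alternatives. The scripts were tested on simulated counts. An exact permutation test of 2 against 2 cannot go below 0.333, so the p-values rest on spread shared across genes, and they measure the spread between pools. Total counts of 51265128 to 54400509 make genes below 1 CPM the least precise. Library pairs of a genotype differed by more than sampling noise and were counted as separate samples.

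The 51 gene lists and the members of the comparison were chosen with earlier results of these data known, so their counts are descriptions beside the share over all genes. Genes named are Jmjd1c, the 12 with the smallest p and the 8 with the largest fold change above 1 CPM in each direction, up to 3 per list and direction, 24 fixed metabolic genes, the 8 with the most unequal transcripts and called genes within 5 Mb of Jmjd1c. Ddx3y and Xist were added after their values were seen. Of 14192 genes 13877 matched RefSeq symbols, and promoters came from RefSeq (GRCm38.p6), in which some genes are not listed. Some genes that this rule names are not reported here.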

Additional observations from a re-analysis of the deposited data

How the results depend on the processing

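Relative log expression factors, limma-voom, filterByExpr, no filter on low counts and unrounded counts each kept the 4 counts of genes within 1.5 times of those reported, and 97.2% to 99.9% of the calls were kept. DESeq2 kept 83.2%. Leaving out 1 library in turn gave 800 to 2757 genes higher and 495 to 2688 lower, 436 to 966 higher and 81 to 231 lower by 2-fold or more, 1 to 411 transcripts higher and 2 to 279 lower, and 0 to 1 genes with unequal transcripts. No gene called in both the reported and an alternative fit changed sign. DESeq2 called 1321 transcripts higher and 1162 lower.

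The labels do not state whether the replicate numbers pair samples of the genotypes. The differences of replicate 1 minus 2 correlated between genotypes at -0.0177 over 11935 genes. This is 1 value from 1 difference per genotype, so it cannot exclude a pairing. With the replicate block 2213 genes were higher and 1998 lower, 107 transcripts higher and 40 lower, and 0 genes had unequal transcripts by edgeR's diffSpliceDGE (514 at an unadjusted p under 0.05). Simes combination of transcript p-values gave 0 as well (275 at an unadjusted p under 0.05).

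Of 224 named genes 209 were called, and all 209 kept their direction under every alternative run, but not all kept their call. Most were named by their p or fold change in these same libraries, so a kept direction was largely set in advance. Genes not called that changed sign when a library was left out were Srebf1 (range -0.275 to 0.235), Acot1 (-0.316 to 0.479), Pank4 (-0.056 to 0.011), Pfkl (-0.063 to 0.048), Eif4e2 (-0.081 to 0.022) and Usf1 (-0.002 to 0.176), and the cause was not tested. Depth limits genes below 1 CPM most.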
